A study of Mus musculus with 40 samples.

Results

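H3K27ac and H3K4me1, a pair of modifications of the histone H3 tail, were compared in wild type (WT) small pre-B cells of the mouse. The comparison rests on 4 of the 40 samples of the series, the chromatin immunoprecipitation (ChIP-seq) libraries H3K27ac WT 1 and 2 and H3K4me1 WT 1 and 2, chosen by the target and genotype in their labels. The cells were sorted by flow cytometry from bone marrow of WT mice, were not cultured or treated, and went into each ChIP as 2000000 cells. The labels give no age, sex or strain, and the replicates are described as biological. The same marks in small pre-B cells of Brwd1 knockout (KO) mice, 2 libraries each, were used to check the labels; the titles of these name the knockout, while their genotype field reads WT.

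Acetylation at this site of H3 is laid down by the acetyltransferases p300 and CBP at promoters and enhancers that are in use. Monomethylation of H3 is laid down mainly by the KMT2C and KMT2D complexes, covers enhancers whether or not they are in use, and usually flanks active promoters, whose centre carries the trimethyl form. The small pre-B cell is the resting stage at which the Ig light chain genes are rearranged, after the pre-B receptor (the Ig heavy chain with the surrogate light chains Igll1, Vpreb1 and Vpreb2) has signalled through Syk and Blnk.

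The deposited tables held 27183753 and 28358008 reads over 240561 regions for H3K27ac WT, and 21829239 and 26637928 reads over 180017 regions for H3K4me1 WT. Replicates correlated closely: the spread between the H3K27ac WT libraries was 1.097 times, and between the H3K4me1 WT libraries 1.119 times, what read counting alone gives. The p-values below therefore measure a small spread between libraries. A ChIP signal cannot tell fewer cells with a mark from less of the mark per cell, and reads of different antibodies do not share a scale. Among 14 small pre-B markers, 11 had a peak of at least 500 bp at the gene start in the H3K4me1 WT lists, against 0 of 10 T cell, 0 of 10 myeloid, 1 of 10 erythroid (Tfrc, the transferrin receptor) and 0 of 6 NK cell markers. In the H3K27ac WT lists such a peak lay at only 2 of the 14 small pre-B markers and at 0 of each other group. Reads at the starts of the small pre-B markers summed to 370 and 380 CPM (reads per 1000000 reads of a library's table) in the H3K4me1 WT libraries, against 8.18 to 8.70 for the T cell, 2.40 to 2.57 for the myeloid, 9.16 to 10.2 for the erythroid and 1.42 to 1.88 for the NK cell markers. In the H3K27ac WT libraries the small pre-B markers summed to 27.3 and 28.7 CPM. The T cell markers gave 3.38 and 3.39 there, the myeloid 2.46 and 2.36, the erythroid 4.89 and 4.20, and the NK cell 1.40 and 1.09. These sums run over unequal numbers of markers and lengths of regions.

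The libraries labelled H3K4me1 WT stood apart from those labelled H3K4me1 KO. All peak names in the H3K4me1 WT lists belonged to the H3K27ac KO library of the same replicate number, and all names in the H3K27ac KO lists belonged to H3K4me1 WT, while the H3K27ac WT and H3K4me1 KO lists carried their own names. Of the peaks of at least 500 bp, 40.4% and 41.8% lay within 1 kb of a gene start in the lists labelled H3K4me1 WT, against 9.44% and 10.1% in H3K4me1 KO, 15.8% and 16.9% in H3K27ac WT, and 2.93% and 2.76% in H3K27ac KO. Over 2898 regions of at least 500 bp held by both tables, log2 read density of H3K4me1 WT 1 correlated at 0.89 with each H3K4me1 KO library and at 0.93 with each H3K27ac WT library. With the H3K27ac KO libraries, whose names the H3K4me1 WT lists carry, it correlated at 0.88 and 0.89. These groups carry each other's names, so a correlation between them cannot show which label is right. H3K4me1 KO 1 correlated at 0.98 with each H3K27ac KO library. Over all 150114 matched regions these values for H3K4me1 WT 1 hardly differed. They were 0.94 with each H3K4me1 KO and H3K27ac WT library and 0.95 with each H3K27ac KO library. These correlations are across regions of the same libraries and carry no test. Samples were kept in their labelled groups, and whether the antibody or genotype label of these libraries is right was not tested. Every value below for H3K4me1 WT is one for the libraries so labelled, and no comparison of the marks within WT exists without them.

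Stretches of 4 promoters show the kinds of gene start on which the results turn. Rel and Spib encode transcription factors of B cells and Igll1 a surrogate light chain, and their starts lay within 1 kb of a wide H3K4me1 WT peak; Cd3e, a subunit of the T cell receptor complex, had only narrow peaks. Each sequence is the 250 bases before the RefSeq gene start in GRCm38.p6 (the peak files use mm9), on the minus strand, with the dinucleotide CG, which is the same on both strands, in capitals. They lie at chr11:23770970-23771219 for Rel, chr7:44532072-44532321 for Spib, chr16:16863986-16864235 for Igll1 and chr9:45009612-45009861 for Cd3e.
Rel: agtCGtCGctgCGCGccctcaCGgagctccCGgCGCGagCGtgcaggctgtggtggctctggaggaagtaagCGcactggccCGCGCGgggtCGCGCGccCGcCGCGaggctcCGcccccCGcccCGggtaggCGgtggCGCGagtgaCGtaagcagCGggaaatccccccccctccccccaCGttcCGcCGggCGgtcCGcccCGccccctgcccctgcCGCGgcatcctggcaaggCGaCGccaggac
Spib: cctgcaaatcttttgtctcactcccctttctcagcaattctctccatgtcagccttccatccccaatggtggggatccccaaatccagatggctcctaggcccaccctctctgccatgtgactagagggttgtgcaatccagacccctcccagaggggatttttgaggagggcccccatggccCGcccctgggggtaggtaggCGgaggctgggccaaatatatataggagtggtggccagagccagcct
Igll1: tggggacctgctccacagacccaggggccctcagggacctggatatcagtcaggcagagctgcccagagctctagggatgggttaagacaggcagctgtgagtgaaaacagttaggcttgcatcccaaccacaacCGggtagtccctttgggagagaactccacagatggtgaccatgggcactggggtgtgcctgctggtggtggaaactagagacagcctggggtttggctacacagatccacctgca
Cd3e: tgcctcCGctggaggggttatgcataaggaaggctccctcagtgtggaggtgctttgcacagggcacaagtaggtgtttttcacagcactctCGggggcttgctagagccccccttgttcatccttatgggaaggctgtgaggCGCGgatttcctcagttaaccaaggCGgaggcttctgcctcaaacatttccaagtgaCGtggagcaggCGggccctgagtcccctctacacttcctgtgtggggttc
Rel held 37 CG dinucleotides, and 2.20% of the 32851 RefSeq promoter windows of this length held as many or more. Spib held 2, Igll1 held 1 and Cd3e held 7, counts reached by 81.2%, 92.1% and 46.3% of the windows. Wide H3K4me1 WT peaks were thus present at starts with many and with few CG dinucleotides; RefSeq windows matched 74.7% of the genes, under the 80% needed, so no comparison of CG content between classes of genes was made.

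The H3K27ac WT lists held more peaks and the H3K4me1 WT lists more wide ones. H3K27ac WT gave 202636 and 202735 peaks, and H3K4me1 WT gave 140083 and 131982. Median widths differed little, at 143 and 144 bp against 148 and 146 bp. Peaks of at least 500 bp numbered 4054 and 4224 for H3K27ac WT and 10541 and 9630 for H3K4me1 WT, or 2.00% and 2.08% against 7.52% and 7.30% of the lists. The widest peak reached 10621 and 10469 bp for H3K27ac WT and 17241 and 20050 bp for H3K4me1 WT. The groups did not overlap for the number of peaks, the median width or the number of wide peaks, and for each the exact two-sided permutation p was 0.333, the smallest that 2 libraries against 2 allow.

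Most H3K4me1 WT peaks coincided with H3K27ac, and fewer did in the other direction. A peak found in both replicates was taken as a replicate 1 peak overlapped by a replicate 2 peak by at least 1 bp, with the width of the replicate 1 peak; this left 174488 H3K27ac and 117268 H3K4me1 peaks. Of the H3K4me1 peaks, 108957 (92.9%) overlapped an H3K27ac peak of this kind, and of the H3K27ac peaks 109466 (62.7%) overlapped an H3K4me1 peak. H3K27ac without H3K4me1 made up 65022 peaks, and H3K4me1 without H3K27ac made up 8311. Of the shared H3K4me1 peaks, 84.5% were under 250 bp wide and 83.9% lay in all 8 lists of both marks and genotypes. Peaks under 250 bp lay within 1 kb of a gene start in 1.59% to 1.77% of cases in each of these lists, whatever the mark or genotype. Between single WT lists, 91.1% to 92.1% of H3K4me1 peaks lay at H3K27ac peaks and 60.2% to 63.4% of H3K27ac peaks at H3K4me1 peaks. Against the H3K4me1 KO lists the share of H3K27ac WT peaks was 58.6% to 59.7%.

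Peaks with H3K27ac alone were narrow and peaks with H3K4me1 alone were wide. The median width was 125 bp (quartiles 116 and 149) for H3K27ac without H3K4me1 and 650 bp (quartiles 346 and 1048) for H3K4me1 without H3K27ac. Shared peaks lay between, at 167 bp by the H3K27ac list and 151 bp by the H3K4me1 list. The median authors' peak score, comparable only within a list, was 31.2 for shared H3K27ac peaks against 8.44 for the rest of that list, and 17.3 for shared H3K4me1 peaks against 8.21 for the rest. Of the shared H3K27ac peaks 83.4% lay in all 8 lists of both marks and genotypes. Without the peaks in all 8 lists, a condition set after seeing the data, the share of H3K27ac peaks with H3K4me1 was 21.8% and that of H3K4me1 peaks with H3K27ac 67.9%. A peak in all 8 lists carries both WT marks by construction, so this condition removes almost only shared peaks and the lower shares are no test of sharing.

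**Figure D1:**
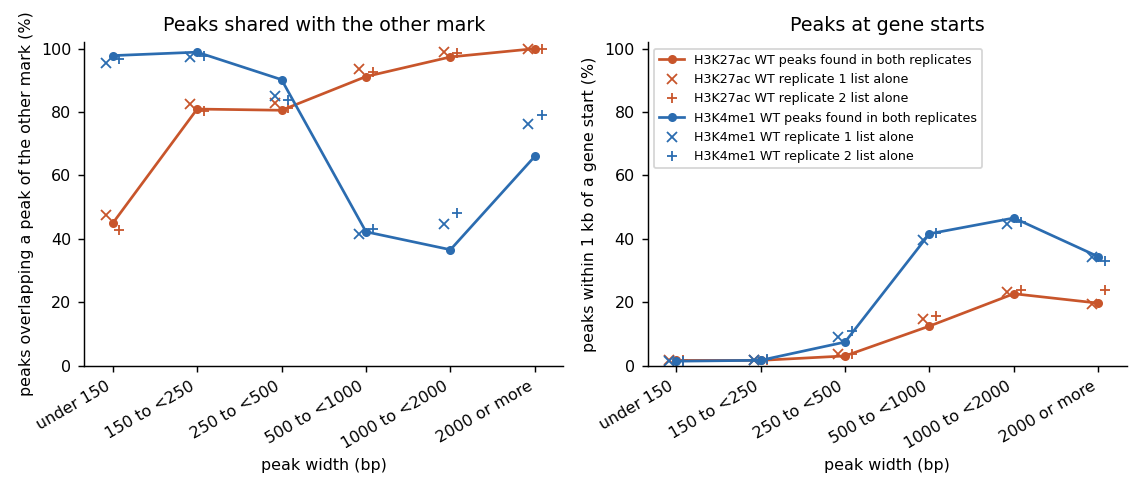
Left, share of peaks (%) that overlapped a peak of the other mark, and right, share (%) within 1 kb of a gene start, by peak width in bp; joined points are peaks found in both replicates and crosses each replicate's list alone. The H3K4me1 share with H3K27ac fell from 98.9% at 150 to under 250 bp to 36.6% at 1000 to under 2000 bp, while the H3K27ac share with H3K4me1 was 97.4% at that width.

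Width separated the marks in opposite directions, as the plot of sharing by width shows. Among H3K4me1 peaks, 97.8% of those under 150 bp, 90.2% of those of 250 to under 500 bp, 42.2% of those of 500 to under 1000 bp, 36.6% of those of 1000 to under 2000 bp and 66.0% of those of 2000 bp or more overlapped H3K27ac. Among H3K27ac peaks, 44.9% of those under 150 bp and all 66 of those of 2000 bp or more overlapped H3K4me1. A wide peak overlaps another more easily than a narrow one does, which bears on the rise for H3K27ac. The share of H3K4me1 peaks that lay in all 8 lists fell from 91.9% at 150 to under 250 bp to 15.1% at 1000 to under 2000 bp.

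H3K4me1 peaks without H3K27ac often lay at gene starts. Of all H3K4me1 peaks without H3K27ac, 3756 (45.2%, exact 95% binomial interval 44.1% to 46.3%) lay within 1 kb of a gene start, and the replicate lists alone gave 33.7% and 38.6%. The corresponding share was 2.43% for H3K4me1 peaks with H3K27ac, 2.44% for H3K27ac peaks with H3K4me1 and 1.47% for H3K27ac peaks without H3K4me1 (interval 1.37% to 1.56%). The median distance to the nearest gene start was 3.39 kb for H3K4me1 alone, against 60.4 kb for H3K27ac alone. Gene bodies held 70.4% of the peaks with H3K4me1 alone, against 38.5% to 39.3% of the other classes. These intervals treat peaks as independent and cover counting error only.

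The wide peaks parted further by place. Of 5284 H3K4me1 peaks of at least 500 bp without H3K27ac, 2894 lay at a gene start and 2390 away from one. Those at a start were rarely found in the H3K4me1 KO lists, at 8.29% and 8.60%, against 48.8% and 49.2% of those away. Wide H3K4me1 peaks with H3K27ac numbered 1060 at a start and 3037 away, and 41.5% and 42.6% against 92.5% and 92.0% of them lay in the H3K4me1 KO lists. Wide H3K27ac peaks without H3K4me1 lay at a gene start in 3 of 292 cases.

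**Figure D2:**
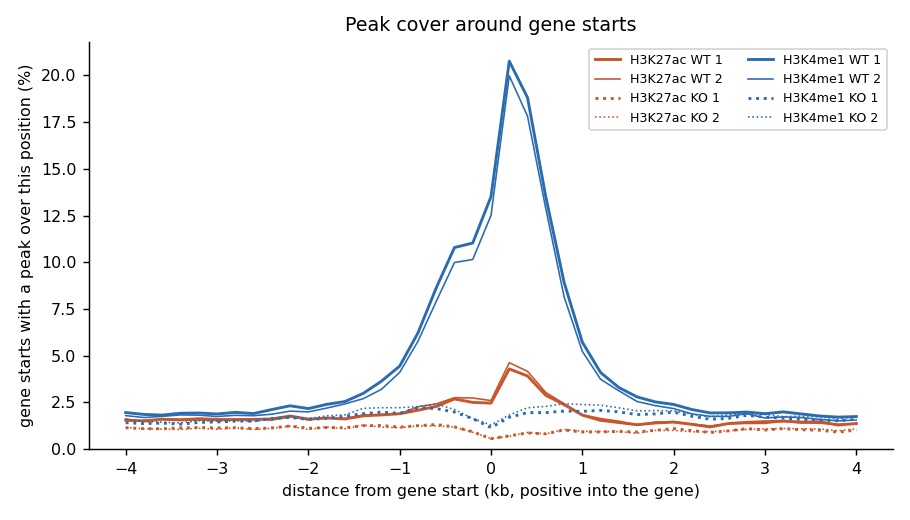
Share of 23619 gene starts (%) with a peak over each position, by distance from the start in kb, 1 line per library (solid WT, dotted KO; thick replicate 1, thin replicate 2). The H3K4me1 WT libraries reached 20.76% and 19.98% at 200 bp into the gene, and the H3K27ac WT libraries 4.29% and 4.63%.

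Around gene starts both marks in WT were most frequent at the same position, at different heights. Of 23619 gene starts, 31.7% and 30.7% had an H3K4me1 WT peak within 1 kb, against 18.8% and 18.9% for H3K27ac WT. The plot of peak cover around gene starts was highest 200 bp inside the gene for all 4 WT libraries. The KO libraries were each lowest at the start itself, at 1.16% and 1.30% for H3K4me1 KO and 0.563% and 0.567% for H3K27ac KO. At 200 bp inside the gene H3K4me1 KO reached 1.71% and 1.83%, against 20.76% and 19.98% for H3K4me1 WT. The H3K4me1 libraries of the 2 labels thus differed in shape as well as height, and the cause was not tested. Counting only peaks of at least 500 bp, 4625 and 4336 starts had one in H3K4me1 WT and 716 and 781 in H3K27ac WT. By peaks found in both replicates, 2716 starts had both marks, 3808 only H3K4me1, 841 only H3K27ac and 16254 neither.

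Read densities were compared at 149981 regions that both tables held (each covering at least 50% of the other), after scaling for region length and library composition, with edgeR's quasi-likelihood test. Of these, 21123 were denser in H3K27ac WT (14.1%) and 13496 denser in H3K4me1 WT (8.998%) at a Benjamini-Hochberg adjusted p under 0.05, so 23.1% were called in either direction. The balance between directions depended on scaling: with library totals 12162 were denser in H3K27ac and 23531 in H3K4me1, and the median log2 difference over all regions moved from -0.02 to -0.16. DESeq2 called fewer, 9913 and 3131, and matching at 80% overlap left 6936 denser in H3K4me1. Without H3K4me1 WT 2, 8904 regions were denser in H3K4me1 and 16022 in H3K27ac; the lone library is then assumed to vary like the others. The sizes were unlike as well, with a median log2 difference (H3K27ac minus H3K4me1) of 0.44 among regions denser in H3K27ac and -0.77 among those denser in H3K4me1. Beyond 2-fold, tested against that threshold with edgeR's glmTreat, 157 regions (0.105%) were denser in H3K27ac and 997 (0.665%) in H3K4me1.

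**Figure D3:**
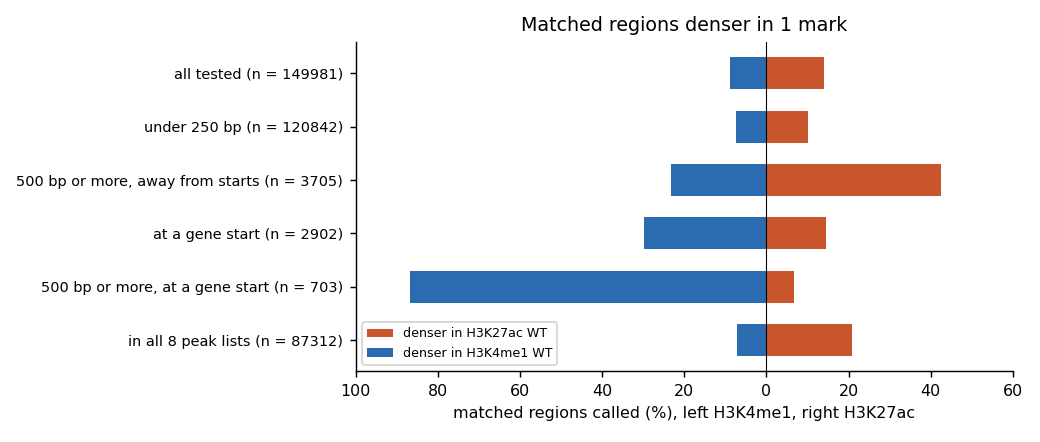
Share of matched regions (%) denser in H3K27ac WT (right, orange) or in H3K4me1 WT (left, blue) by region type, from edgeR at an adjusted p under 0.05. At gene starts, regions of at least 500 bp were denser in H3K4me1 in 86.8% and in H3K27ac in 6.83% of cases; away from starts the shares were 23.2% and 42.6%.

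Gene starts and wide regions parted the marks, as the plot of called regions by type shows. Of 703 matched regions of at least 500 bp at a gene start, 610 (86.8%) were denser in H3K4me1 and 48 (6.83%) in H3K27ac, with a median log2 difference of -1.72. Of 3705 regions of this width elsewhere, 860 (23.2%) were denser in H3K4me1 and 1579 (42.6%) in H3K27ac, with a median of 0.16. Regions over 2-fold denser in H3K4me1 had a median width of 950 bp, 45.0% lay at a gene start and 11.2% lay in all 8 lists. Regions over 2-fold denser in H3K27ac had a median width of 235 bp, and 3.18% lay at a gene start.

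Single regions were ranked by difference among those at or above the median density (a log2 density of 3.97), with distinct nearest genes. The 20 named by this rule lay 2216 bp or more from a gene start. Regions below that density could differ more than some of them, as at Rbm39 (log2 difference -2.09, at the gene start). The largest excess of H3K27ac by this ranking, at chr14:46375018-46375208 (mm9), 97199 bp from the start of Ddhd1 (a phospholipase), had a density of 386 and 376 RPKM (reads per kb per 1000000 scaled reads) in H3K27ac WT and 4.57 and 3.39 in H3K4me1 WT, a log2 difference of 6.59 ± 0.13 (SE; edgeR adjusted p = 1.08e-136). This Ddhd1 region had a peak in only 2 of the 8 lists of both marks and genotypes. It held 1519 and 1538 reads over 191 bp in H3K27ac WT and 11 and 10 over 118 bp in H3K4me1 WT. A region in the gene body of Shc3, which encodes a signalling adaptor, had densities of 460 and 467 against 11.7 and 7.74 RPKM (log2 difference 5.60). The rest of the 10 named on that side lay nearest to Nrp1, Zbtb7c, Ctnna1, Rgma, Smpd4, Ppy, Pitrm1 and Braf, at log2 differences from 3.20 to 4.09. In each the 4 libraries fell into separate groups, since that was a condition of being named. The Ctnna1 region likewise had a peak in only 2 of the 8 lists, with 15 and 9 reads in H3K4me1 WT.

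On the H3K4me1 side, the first region of the same ranking lay 64908 bp from the start of Cr2, the complement receptor CD21 of B cells, at chr1:197067818-197068137. Its density was 13.5 and 16.7 RPKM in H3K27ac WT and 98.2 and 91.8 in H3K4me1 WT, a log2 difference of -2.65 ± 0.09 (SE; edgeR adjusted p = 2.79e-80). In the body of Litaf, 41.5 and 37.3 stood against 226 and 226 (log2 difference -2.52). Gtpbp4, Tex14, Zfp949, Cxcl12 (the chemokine that holds B cell precursors in the marrow), Osbpl1a, Plxdc2, Ddhd1 and Sepsecs were the nearest genes of the others, with log2 differences from -2.58 to -1.94. The Ddhd1 region of this side was another one, 154593 bp from that start, with 984 and 976 against 3655 and 3890 RPKM. That region lay in all 8 lists and held 7256 to 20318 reads per WT library, where the median tested region held 57.5.

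**Figure D4:**
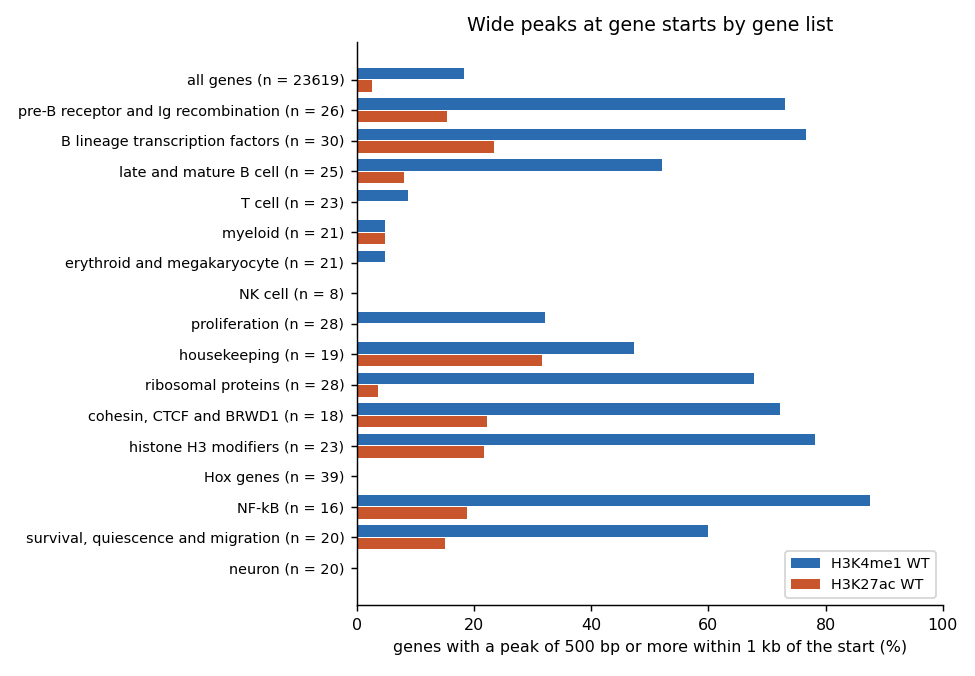
Share of the measured genes of each list (%) with a peak of at least 500 bp within 1 kb of the start, for H3K4me1 WT (blue) and H3K27ac WT (orange), by peaks found in both replicates. Pre-B receptor genes reached 73.1% for H3K4me1 and histone H3 modifiers 78.3%, against 18.3% of all genes and 0 for Hox genes and neuron genes.

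Wide H3K4me1 WT peaks were frequent at the starts of genes that B lineage cells use, and of some lists not chosen for the lineage. A peak of at least 500 bp lay within 1 kb of the start of 19 of 26 genes of the pre-B receptor and Ig recombination (73.1%) and of 23 of 30 B lineage transcription factors (76.7%), against 18.3% of all genes. Similar shares were found for histone H3 modifiers (78.3%), genes for cohesin, CTCF and BRWD1 (72.2%) and ribosomal protein genes (67.9%). Lower ones were found for housekeeping (47.4%) and proliferation genes (32.1%). The count was 14 of 16 for NF-kB genes and 13 of 25 for genes of late and mature B cells. It was 2 of 23 for T cell genes, namely Cd5 and Il2ra, of which Il2ra (CD25) also marks small pre-B cells. It was 1 of 21 for myeloid genes (Csf2ra), 1 of 21 for erythroid and megakaryocyte genes (Tfrc), and 0 of 8 NK cell, 39 Hox and 20 neuron genes. Gene lists were read by these counts beside the share of all genes, with no test of a list.

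Wide H3K27ac WT peaks were fewer. They lay at 4 of the 26 pre-B receptor and recombination genes, among them Lyn, Pik3ap1 and Syk, and at 7 of the 30 B lineage factors, namely Ebf1, Fli1, Klf2, Mef2d, Pou2af1, Pou2f1 and Spib. Each of these genes also had a wide H3K4me1 peak. The width is that of replicate 1, and in replicate 2 the H3K27ac peaks of Ebf1, Fli1 and Pou2af1 measured 181, 343 and 337 bp. The share over all genes was 2.49%, and 19 genes of all had a wide H3K27ac peak at the start without a wide H3K4me1 peak.

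Genes used by all cells were counted in the same way, beside 18.3% of all genes for wide H3K4me1 and 2.49% for wide H3K27ac. Of 28 ribosomal protein genes, 19 had a wide H3K4me1 peak and 1 a wide H3K27ac peak, or 3 in replicate 1 alone. Of 19 housekeeping genes, 9 had wide H3K4me1 and 6 wide H3K27ac peaks, the latter at Actb, B2m, Eef2, Hspa8, Pgk1 and Rbm39. In replicate 2 the H3K27ac peaks of Actb and Rbm39 measured 369 and 467 bp. Of 28 proliferation genes, 9 had wide H3K4me1 and 0 wide H3K27ac peaks, or 1 in replicate 2 alone. Genes for cohesin, CTCF and BRWD1 had wide H3K4me1 at 13 of 18 and wide H3K27ac at 4 of 18; at Brwd1 itself, the gene deleted in the KO mice, the widest H3K4me1 WT peaks measured 817 and 783 bp and neither H3K27ac WT list had a peak. Of 23 histone H3 modifiers, 18 had wide H3K4me1 and 5 wide H3K27ac peaks, the latter including the acetyltransferase gene Ep300. The H3K27ac count was 6 in replicate 1 alone and 3 in replicate 2 alone. The widest H3K27ac peak at Kdm5a measured 226 bp in replicate 2 and 1138 bp in replicate 1, and these need not be the same peak.

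Some Hox genes, which pattern the body axis, and neuron genes had narrow peaks of both marks. Both marks were found within 1 kb of 7 of 39 Hox (17.9%) and 5 of 20 neuron gene starts (25%), beside 11.5% of all genes. At Hoxb6 the widest peaks measured 155 and 159 bp for H3K27ac WT and 153 and 152 bp for H3K4me1 WT, and densities were 105.96 and 105.20 against 92.7 and 96.2 RPKM (log2 difference 0.16, edgeR adjusted p = 0.152). The matched regions at Hoxa2, Hoxc6, Gria1 and Gabrb2 also lay in all 8 lists and did not pass the test. Of the tested matched regions at Hox and neuron starts, 8 each, 0 were called in either direction with edgeR, where 14.6% of all 2902 tested regions at gene starts were denser in H3K27ac and 29.9% in H3K4me1.

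Among the signalling genes of the pre-B receptor, Syk, the kinase that starts the cascade, had H3K4me1 WT peaks of 1707 and 1744 bp and H3K27ac WT peaks of 1014 and 1072 bp at its start (chromosome 13, position 52678807, plus strand, mm9). Regions within 1 kb of the start held 36.6 and 37.8 CPM over 3243 bp in H3K4me1 WT, and 2.685 and 2.997 over 1072 bp in H3K27ac WT. The H3K4me1 KO libraries held 4.92 and 5.66 in the same 3243 bp, so the read counts set the libraries labelled H3K4me1 WT apart at this start as the peak lists did. Blnk, the adaptor next to Syk, had H3K4me1 WT peaks of 5817 and 8339 bp, and an H3K27ac peak of 760 bp in replicate 1 and none in replicate 2. Reads at Blnk came to 87.4 and 90.5 CPM over 8339 bp for H3K4me1 WT and 2.32 and 2.08 over 783 bp for H3K27ac WT.

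The receptor genes varied among themselves. Cd79b, a signalling chain of the receptor, had 82.5 and 85.3 CPM for H3K4me1 WT over 9710 bp and 1.69 and 1.83 for H3K27ac WT over 860 bp. The surrogate light chain gene Igll1, whose promoter held 1 CG, had H3K4me1 WT peaks of 595 and 634 bp. Its regions held 6.87 and 6.94 CPM over 1179 bp in H3K4me1 WT, and neither H3K27ac WT list had a peak within 1 kb. Vpreb1 likewise had H3K4me1 WT peaks of 1439 and 1423 bp and no H3K27ac WT peak. Per kb of region the order of H3K4me1 WT was thus Cd79b over Igll1, and the replicates of each gene lay close together.

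Of the 26 pre-B receptor and recombination genes 7 had no wide H3K4me1 peak: Btk, Dntt, Prkdc, Rag1, Rag2, Xrcc4 and Xrcc5. At Btk, a kinase of the cascade, the H3K4me1 WT peaks measured 305 and 397 bp, at Prkdc, a DNA repair kinase, 462 and 525 bp, and Xrcc5, a DNA end-binding protein, had none. Rag1 had H3K27ac WT peaks of 273 and 264 bp and H3K4me1 WT peaks of 637 and 302 bp, and the H3K4me1 peaks of the replicates did not overlap each other. The matched region at its start had 16.6 and 20.05 RPKM in H3K27ac WT and 15.3 and 13.0 in H3K4me1 WT, a log2 difference of 0.39 ± 0.15 (SE; edgeR adjusted p = 0.0428). That edgeR call was lost with library totals (adjusted p = 0.216), with no length offset (0.609), at 80% overlap (0.0792), and without H3K27ac WT 2 (0.433) or H3K4me1 WT 2 (0.377), and DESeq2 gave 0.362. Rag2 had an H3K4me1 peak of 300 bp in WT replicate 2 and none in the other 3 WT lists, and Dntt, the terminal transferase, had none in any.

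**Figure D5:**
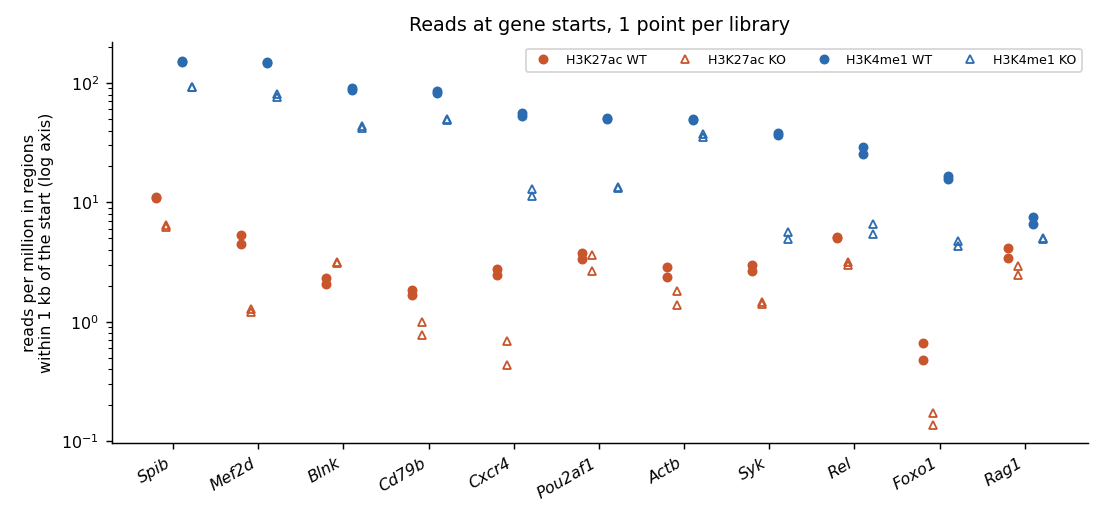
CPM (log axis) in the regions within 1 kb of the start of 11 genes, 1 point per library, filled for WT and open for KO; each mark was counted over its own regions, which are wider for H3K4me1. At Syk the H3K4me1 WT libraries lie at 36.6 and 37.8 and the H3K4me1 KO libraries at 4.92 and 5.66.

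Some transcription factor genes carried very wide regions at their starts, as the plot of reads at gene starts shows in part. Spib had H3K4me1 WT peaks of 11914 and 7404 bp and 154 and 148 CPM over 12811 bp, with 11.1 and 10.9 over 3118 bp for H3K27ac WT. Mef2d, a MADS box factor, had H3K4me1 WT peaks of 14514 and 12524 bp and 147 and 150 CPM over 14514 bp, with 5.30 and 4.51 over 1700 bp for H3K27ac WT. Counted over all H3K27ac regions under the widest H3K4me1 peak, H3K27ac WT held 28.5 and 28.1 CPM over 9165 bp at Spib and 25.6 and 23.4 over 10218 bp at Mef2d. Tcf3, which encodes the E2A proteins that set up the B lineage, had H3K4me1 WT peaks of 5174 and 5701 bp, and an H3K27ac peak of 141 bp in replicate 2 only. Pax5, the factor that commits cells to the lineage, had H3K4me1 WT peaks of 1512 and 1919 bp and H3K27ac WT peaks of 273 and 215 bp. Foxo1, an activator of the Rag genes, had 16.7 and 15.7 CPM for H3K4me1 WT over 2266 bp and 0.478 and 0.670 for H3K27ac WT over 313 bp. No H3K4me1 WT peak of at least 500 bp that was found in both replicates lay at Bach2, Erg, Id2, Ikzf2, Mef2c, Pou2f2 or Tcf4.

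Only where the regions of both tables matched could the marks be tested at a start, which was so for 32 of the 100 genes looked up there. Many of these genes were picked from their list for high H3K27ac density at the start, Emr1, Smc1a, Rel, Rbm39, Actb, Nipbl and Kdm5a among them, so the count over the 32 is a description and is not set against other starts: 11 were denser in H3K4me1 and 3 in H3K27ac. At Rel, an NF-kB subunit whose promoter was the richest in CG of those shown, density was 4.74 and 4.93 RPKM in H3K27ac WT and 11.99 and 13.59 in H3K4me1 WT (log2 difference -1.41 ± 0.09, SE; edgeR adjusted p = 4.15e-38). Pou2af1, a B cell coactivator, had 2.88 and 3.14 against 13.1 and 12.8 (log2 difference -2.10). Kdm5a, an H3K4 demethylase gene, had 2.43 and 2.30 against 11.93 and 11.999 (log2 difference -2.34). That value rests on an H3K27ac region of 1138 bp with 57 and 56 reads. All H3K27ac regions within 1 kb of this start held 262 and 248 reads over 1365 bp. The matched pair thus left out most H3K27ac reads at Kdm5a and overstates the difference there. Actb (-1.78), Rbm39 (-2.09), Rps14 (-2.05), Nipbl (-1.27), Ebf1 (-0.61), Tcf4 (-1.31) and Plcg2 (-0.83) were among the others denser in H3K4me1 on the log2 scale. Plcg2, a phospholipase of the receptor cascade, lost its call without H3K27ac WT 1, H3K27ac WT 2 or H3K4me1 WT 2 (edgeR adjusted p = 0.0747, 0.0552 and 0.140). The regions denser in H3K27ac lay at Rag1, Smc1a (0.31, a cohesin subunit) and Emr1 (0.30, the myeloid marker F4/80), and Smc1a lost its call with library totals (adjusted p = 0.158), without H3K27ac WT 1 (0.0598) and without H3K4me1 WT 2 (0.0736).

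The widest shared regions were H3K4me1 WT peaks in which H3K27ac covered a part. At Adrbk1, a kinase of G protein-coupled receptors, the peak chr19:4289187-4306427 (mm9) measured 17241 bp, and H3K27ac regions covered 9324 bp of it. It held 180 and 182 CPM in H3K4me1 WT and 23.2 and 23.6 in H3K27ac WT. Mef2d and Spib followed in width, with starts inside the peak, and then regions nearest to Lhpp, Tomm20 and Ccdc97. All 6 lay in all 8 lists.

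The widest peaks of H3K4me1 without H3K27ac were 4977 to 7016 bp wide. The widest, chr19:5843266-5850281, covered the start of the noncoding RNA gene Neat1, with 60.4 and 60.8 CPM in H3K4me1 WT and 6.44 and 6.07 in the 2752 bp that H3K27ac regions covered. The region nearest to Pptc7 overlapped no H3K27ac region at all and held 27.3 and 27.9 CPM in H3K4me1 WT. The others lay nearest to Prkcd and Sema4d, which B cells express, and to Susd1 and Sh3bgrl3. The Sh3bgrl3 peak overlapped a peak in all 8 lists and the Prkcd peak in 7, so such peaks can overlap H3K27ac peaks that were not found in both replicates. The widest peaks of H3K27ac without H3K4me1 were far narrower, at 1158 to 1939 bp, and lay 7414 to 477654 bp from the starts of Syndig1l, Ntm, Asic4, Tspan11, Svil and Ly86. All 6 overlapped H3K4me1 regions of the count table, which include regions found in 1 replicate or in KO cells. At the Syndig1l peak these held 24.7 and 25.2 CPM in H3K4me1 WT, against 4.93 and 3.88 in H3K27ac WT, so the absence of a peak in both replicates was no absence of reads.

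Peaks of the other targets in WT cells fell differently on the classes. Peaks of the insulator protein CTCF in WT 1 overlapped 10.7% of H3K4me1 peaks without H3K27ac and 1.12% of those with it, while CTCF WT 2 overlapped 6.47% and 34.1%. The replicates of CTCF thus disagreed on the order. NIPBL, the cohesin loader, overlapped 19.3% and 32.5% of shared H3K4me1 peaks and 0.578% and 1.14% of those without H3K27ac. WAPL, which releases cohesin, overlapped 29.8% and 30.2% against 2.18% and 2.12%. RAD21, a cohesin subunit, overlapped 2.64% and 4.23% of the shared H3K4me1 peaks against 1.48% and 1.68% of those without H3K27ac, and SMC3, another subunit, 4.53% and 12.4% against 1.38% and 2.41%. Of the shared H3K4me1 peaks 83.9% lay in all 8 lists, a group that peaks without H3K27ac can hardly enter by construction, and its part in these overlaps was not tested.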

How the data were processed

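Per the submitters' processing notes, the build was mm9; MACS2, featureCounts, BWA, Picard, edgeR and bedtools are named without roles or versions. The deposited counts are the authors' reads per merged region of each mark; 2 per-sample columns of external input were not used. The deposited peak lists give 1 list per sample with a score per peak, and the authors' counts after subtraction of input (also a score) served 1 alternative. Gene starts came from the authors' signed distances, which 23619 starts reproduced exactly; 83 genes with gene body distances over 2.5 Mb were left out. Matched regions were fitted with edgeR 4.0.16 in R 4.3.3 (TMM, filterByExpr, log region length as offset). On simulated data with 150114 regions for this comparison it called 90 of 100 regions changed 2-fold, 100 of 100 changed 4-fold and 11 others. The simulation gave both marks equal region lengths and little spread beyond counting. It raised only H3K27ac, and only in regions with more reads. Its counts therefore need not hold for the real libraries, where lengths and composition differ. The alternative count test was DESeq2 1.42.0. Lists were compared in Python 3.11.15. CPM values use each table's total. The members, gene lists and tests were chosen with earlier results of these data known. Named regions were called ones at or above the median density, with groups apart, the first 10 in each direction by size; the 6 widest peaks of each class; genes of the pre-B receptor and B lineage factor lists, up to 3 per other list by H3K27ac density at the start, and fixed genes, passing over predicted, microRNA, olfactory, vomeronasal, Riken and Gm symbols. Chosen after seeing the data were the 2-fold threshold, merged loci, gene lists by peaks of at least 500 bp, and leaving out what lies in all 8 lists. Brwd1, Vpreb1, Cd79b and the printed promoters were singled out after their values were seen.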

Additional observations from a re-analysis of the deposited data

How the results depend on the processing

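The libraries differ in depth by less than 1.5 times, and regions with few reads limit the test: the median tested region had 57.5 reads. With edgeR, regions denser in H3K27ac and in H3K4me1 numbered 12162 and 23531 with library totals, 157 and 997 against a 2-fold threshold, and 4493 and 3716 without regions in all 8 lists (fewer regions tested). DESeq2 gave 9913 and 3131, with 66879 adjusted p-values not available. At 80% reciprocal overlap 6936 were denser in H3K4me1, over fewer regions. Leaving out 1 library gave 16022 to 17170 and 8904 to 10159. Merged loci, no filter beyond 1 read, no length offset and input-subtracted counts kept both counts within 1.5 times. With the replicate number as a block the counts were 21748 and 13819. Same-numbered libraries did not deviate together (r = 0.0276 over 83694 regions and 2 pairs). The spread between replicates was little above counting error (1.097 and 1.119 times), which keeps r low with or without a pairing. Whether the numbers are a pairing thus cannot be told from it.

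In the order H3K27ac with H3K4me1, H3K27ac without, H3K4me1 with H3K27ac and H3K4me1 without, the share at gene starts was 1.90%, 1.35%, 1.95% and 56.6% at a score of 2 times the lowest, 2.95%, 1.51%, 2.87% and 36.9% for the union of replicates, and 8.78%, 7.88%, 8.67% and 52.3% within 5 kb. Median widths in this order were 183, 140, 165 and 1024 bp at the higher score; the union gave 122, 147 and 476 bp for the last 3. Single replicates gave shares at starts of 2.65% to 2.80%, 1.496% to 1.551%, 2.61% to 2.74% and 33.7% to 38.6%, and widths of 161 to 164, 121 to 122, 143 to 146 and 438 to 471 bp. Without peaks in all 8 lists, shared peaks lay at starts in 6.11% (H3K27ac) and 5.90% (H3K4me1) of cases, with widths of 141 and 128 bp. The share of H3K4me1 peaks with H3K27ac was 94.9% at the higher score, 67.9% without peaks in all 8 lists and 91.1% to 92.1% in single replicates; that of H3K27ac peaks with H3K4me1 was 21.8% without peaks in all 8 lists and 60.3% to 63.3% in single replicates.

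At the higher score 1385 genes had both marks and 2436 H3K4me1 only. Wide H3K4me1 peaks then lay at 2650 genes, among them 12 pre-B receptor, 15 B lineage factor, 7 late and mature B cell, 9 ribosomal protein, 4 proliferation, 1 T cell and 0 erythroid genes, and wide H3K27ac peaks at 212 genes, among them 1 pre-B receptor, 1 housekeeping, 1 survival, 2 cohesin, 2 histone modifier and 0 myeloid genes. The union gave 4254 genes with both marks and 1065 with wide H3K27ac peaks, among them 7 pre-B receptor, 7 survival, 5 late and mature B cell, 5 NF-kB, 3 ribosomal protein and 1 proliferation gene. Within 5 kb, 8811 genes had both marks, 2606 H3K27ac only and 9319 neither, and 888 had wide H3K27ac peaks, among them 2 ribosomal protein and 1 T cell gene. Single replicates gave 3 to 5 NF-kB, 3 to 6 histone modifier, 0 to 1 myeloid, 0 to 1 proliferation and 1 to 3 ribosomal protein genes with wide H3K27ac peaks. The causes of these moves were not tested. Of the named regions' values under the alternatives, 472 kept direction and call, 23 lost the call, 1 gained it (Bcl6, with no length offset) and 0 changed direction. These values cover the called regions and the uncalled ones at Hoxb6, Hoxc6, Hoxa2, Gria1, Gabrb2, Cd8b1 and Bcl6. The other uncalled regions at gene starts, where differences were small, were left out, so the 0 says nothing of them.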
